A study of Rattus norvegicus with 24 samples.

Results

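Immunoglobulin variable (V) gene segments were described in the spleen and thymus of rats, as all genes of the count table whose symbol begins with Ighv, Igkv or Iglv. The rule found 18 of 32883 genes, of which 4 were heavy chain segments (Ighv), 14 were kappa light chain segments (Igkv) and 0 were lambda light chain segments (Iglv). The symbols are those of the mouse nomenclature, to which the table's gene descriptions credit them, so the 18 genes are the named subset of the rat segments and not the whole repertoire. A further 5 rows, chosen by their descriptions as V regions, carry other names and were kept apart.

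The series holds 24 messenger RNA libraries from 4 tissues (liver, brain, thymus, spleen) of 7-month-old Sprague-Dawley rats. The treated group is labelled SAM-exposed and the control group Sham-exposed, while the title of the series names PCB (polychlorinated biphenyls) as the exposure. Neither dose, duration nor the animals' sex is stated in the labels. For spleen and for thymus, the SAM group holds the libraries numbered 1, 3 and 5 and the Sham group those numbered 14, 15 and 17. The labels do not say outright that each number is a separate rat, so p-values measure the spread between these libraries.

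An antibody is built of heavy and light chains, and the part of each chain that binds antigen is encoded by a V segment that a developing B cell has joined to smaller D or J segments. Each B cell usually carries a single productive heavy chain and a single productive light chain, and plasma cells, the antibody-secreting descendants of B cells, hold much more of these transcripts than resting B cells. The spleen is rich in B cells and plasma cells, whereas the thymus is the site of T cell development and holds few B-lineage cells. The level of a V segment in bulk tissue therefore reflects which B-lineage clones are present and how much RNA each holds. In these bulk samples, fewer cells of a type and less RNA per cell cannot be told apart.

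Depth was 13.3 to 20.1 M (mega) counts per library in spleen and 15.5 to 19.6 M in thymus. The summed level of 22 B cell genes was 6390 to 8199 CPM (counts-per-million) in spleen and 394 to 629 in thymus, and that of 9 immature thymocyte genes was 5039 to 6304 CPM in thymus and 65.9 to 86.6 in spleen. In thymus, the libraries SAM 1 and Sham 15 stood apart, where mitochondrially encoded genes took 5.64% and 8.18% of counts, compared with 2.95 to 3.64% in the remaining 4. The same 2 libraries had summed levels of 7 adipose genes of 852 and 1314 CPM against 106 to 318, and the main thymus results are also given without them, a choice made after the data had been seen. Across the replicate pairs of all tissues, chi-square per degree of freedom was 5.95 to 193, so each pair differed by more than sampling noise and every library was kept.

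Named V segments took a small part of the counts in every library. In spleen, they held 9134 counts in SAM 1, 7449 in SAM 3 and 5608 in SAM 5, and 10516 in Sham 14, 10630 in Sham 15 and 6255 in Sham 17. The thymus libraries held 1078, 1770 and 2149 counts in SAM 1, 3 and 5, and 1855, 1344 and 1273 in Sham 14, 15 and 17. Counting error alone gave 95% Wilson intervals with a half-width of 1.90 to 2.62% of the value in spleen and 4.23 to 5.97% in thymus, which is far below the spread between libraries. Because near-identical V segments can share reads and the counting method is not given in the sources used here, the split of counts between single segments is uncertain. Segment lengths are not in the table, so a share below is a share of counts and is not corrected for length.

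Igkv1-35 (ENSRNOG00000049024), a kappa segment, took the largest share of the V counts in each of the 12 spleen and thymus libraries. It held 38.6, 34.9 and 43.1% of V counts in spleen SAM 1, 3 and 5, and 50.5, 39.4 and 46.1% in spleen Sham 14, 15 and 17. In thymus it held 37.4, 29.3 and 44.3% in SAM 1, 3 and 5, and 30.8, 52.5 and 33.8% in Sham 14, 15 and 17. The range was wider in thymus than in spleen, and the SAM and Sham libraries overlapped in both tissues.

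Ighv7-4 (ENSRNOG00000058824) made up most of the heavy chain counts, at 13.96 to 20.7% of V counts in spleen and 10.8 to 27.0% in thymus. Igkv12-41 (ENSRNOG00000055193) followed, at 6.54 to 15.3% in spleen and 7.74 to 18.0% in thymus. Igkv1-88, Igkv4-53, Igkv15-103, Igkv12-44 and Igkv1-99 each lay between 0.65 and 11.5% in all 12 libraries. The heavy segments Ighv5-12-4 and Ighv12-3 held 1.45 to 3.14% and 0.90 to 2.70% in spleen. Summed by the number that names a family, the 3 Igkv1 segments held 48.0 to 59.98% of V counts in spleen and 36.2 to 67.0% in thymus, the 2 Igkv12 segments 11.0 to 17.7% and 10.5 to 22.9%, and the 5 Igkv4 segments 3.93 to 10.3% and 2.64 to 8.59%.

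**Figure D1:**
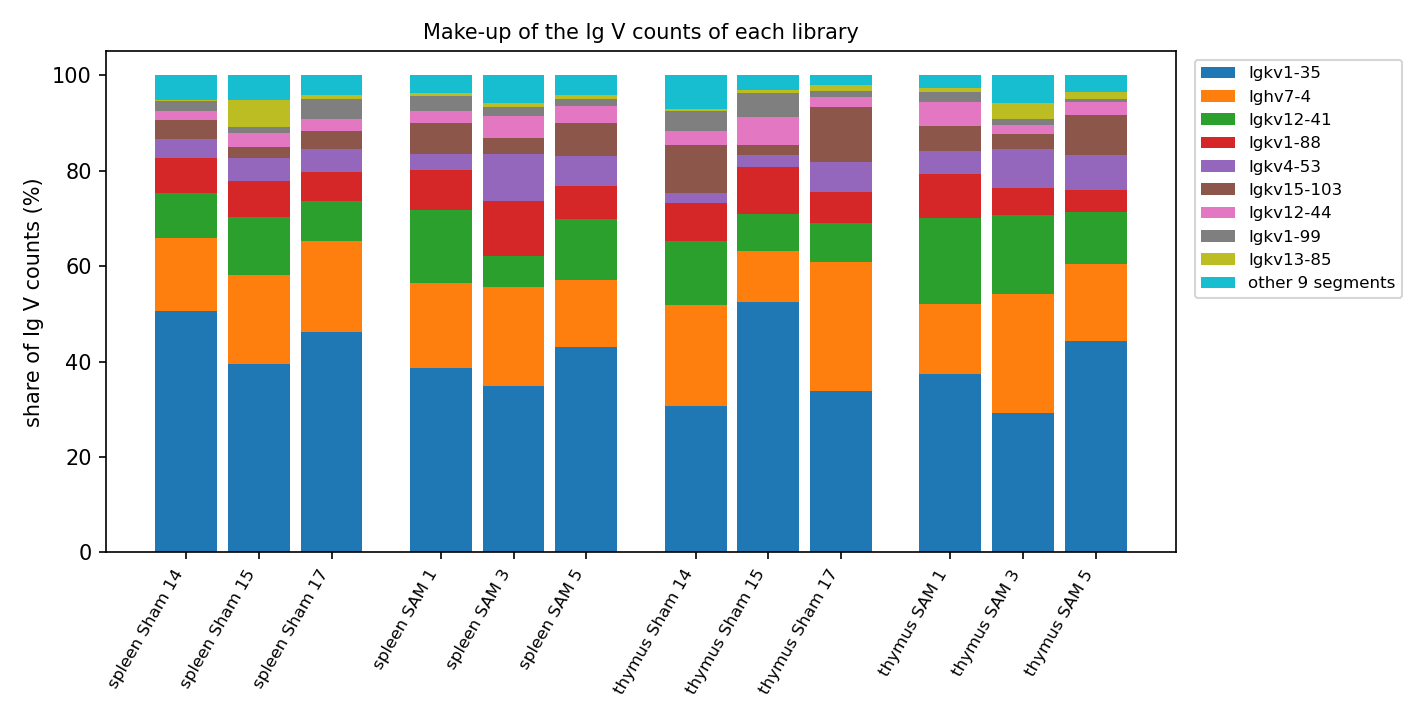
Share of V counts (%) by segment in the 12 spleen and thymus libraries, each bar being 1 library and adding up to 100%. The segments with the highest mean CPM in spleen and Igkv13-85 are drawn singly, and the remaining segments are summed as 1 block. Igkv1-35 is the largest block in every bar, from 29.3% in thymus SAM 3 to 52.5% in thymus Sham 15, and the Igkv13-85 block stands out in spleen Sham 15 at 5.79%.

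At the low end, Ighv8-2 had 28 counts over the 6 spleen libraries and 0 in all 6 thymus libraries, which allows up to 3 counts a library, or 0.153 to 0.193 CPM. Igkv4-86 had 3 counts in spleen and 1 in thymus, and Igkv5-39 had 4 in spleen and 9 in thymus, all 9 in the library Sham 14. Igkv4-80 had 20 counts in thymus, of which 17 were in SAM 5. In thymus, the counts of Igkv5-39 and most of those of Igkv4-80 thus came from 1 library each. After the filter on low counts, 15 of the 18 segments were tested in spleen (all but Ighv8-2, Igkv4-86 and Igkv5-39) and 10 in thymus.

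The segments varied more between libraries than most genes. The coefficient of variation of CPM over the 6 spleen libraries had a median of 40.3% for the 15 segments tested, against 10.4% over all 14530 genes tested, and all 15 lay above that median. In thymus it was 50.5% for the 10 segments tested against 10.8% over 15036 genes, with all 10 above. Low counts add to this figure, but Igkv1-35, with 2416 or more counts in each spleen library, still varied by 37.2%.

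Usage, the make-up of the V counts, differed within the groups as well as between them. Expressed as the percentage of counts that would have to change segment to make 2 libraries equal, the distance was 9.60 to 18.2% among the spleen SAM libraries, 8.13 to 15.5% among the spleen Sham libraries and 10.9 to 19.4% between the groups. In thymus, the distances were 15.9 to 21.9%, 14.9 to 30.3% and 16.4 to 35.2%. The within-group and between-group ranges overlapped in both tissues.

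**Figure D2:**
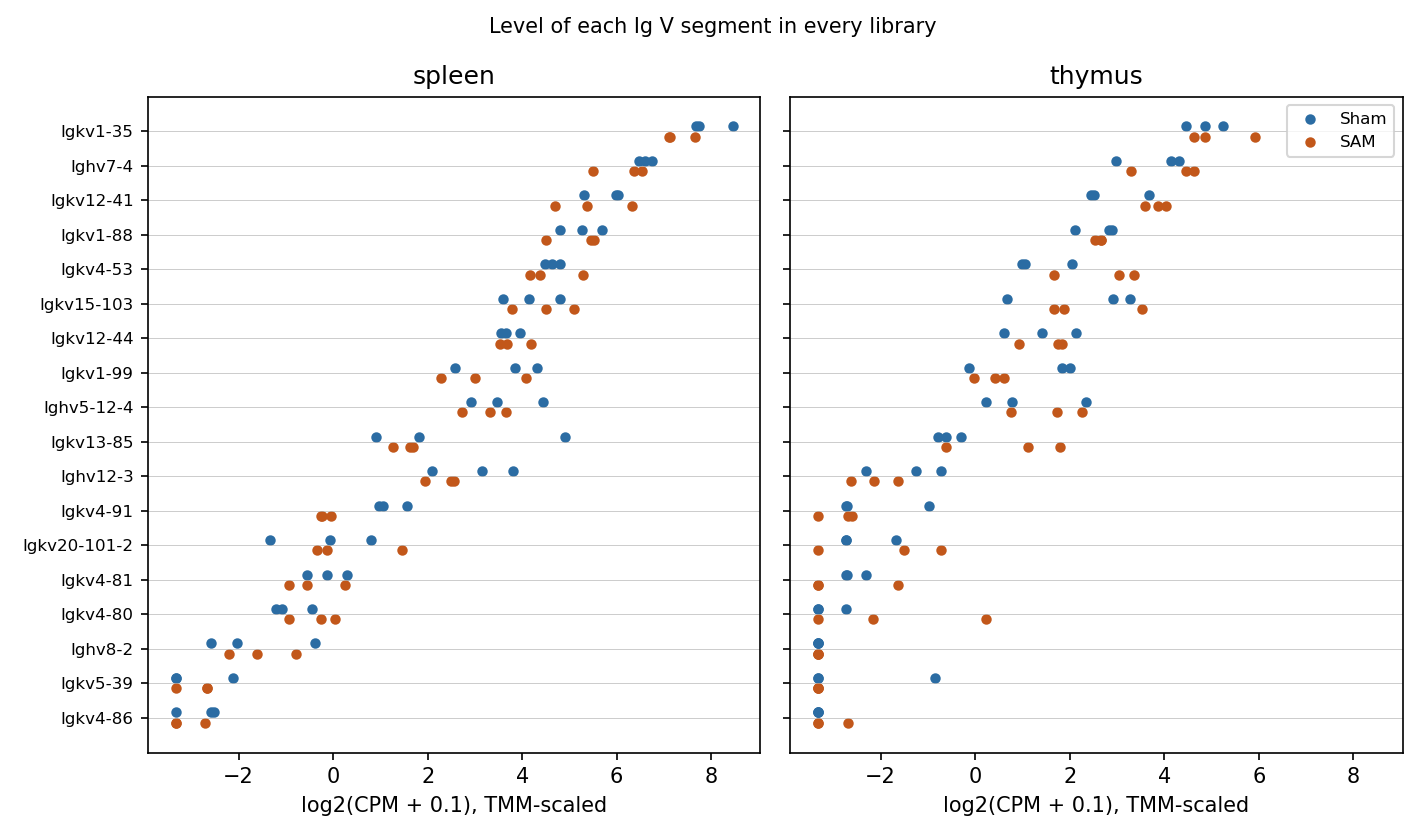
Level of each of the 18 segments in spleen (left) and thymus (right), as log2 of TMM-scaled CPM + 0.1, with 1 point per library, Sham above and SAM below each line. Igkv1-35 is highest and points at the left edge are libraries with 0 counts; the SAM and Sham points are apart in spleen for Igkv1-35 and Igkv4-91.

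Spleen held more V segment RNA than thymus in every library. The share of all counts was 0.0325 to 0.0670% in spleen and 0.00644 to 0.0138% in thymus, with no overlap. The mean of log2 shares was 2.47 higher in spleen, a 5.52-fold difference (two-sided exact permutation test, p = 0.00216, the smallest that 6 against 6 libraries allow). The ratio of spleen to thymus was 8.02, 3.99 and 2.35 for the libraries numbered SAM 1, 3 and 5, and 7.06, 7.56 and 7.08 for Sham 14, 15 and 17. The labels do not say that equal numbers are the same rat, so these ratios set libraries side by side and were not taken as pairs.

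Each of the 15 segments tested over the 12 libraries was higher in spleen by edgeR's quasi-likelihood test with Benjamini-Hochberg adjustment at 0.05. Against this, 39.6% of the 15781 genes tested were higher in spleen and 78.1% differed in either direction. The median log2 difference of the segments was 2.74, against 0.01 over all genes. Ighv12-3 (ENSRNOG00000049870) had the largest, at 5.15 ± 0.41 (SE, edgeR adjusted p = 1.65e-07). With CPM scaled within each tissue, it had 3.76 to 13.9 CPM in spleen and 0.0616 to 0.506 CPM in thymus. Igkv4-91 followed at 4.03 ± 0.45 (adjusted p = 4.54e-06). Igkv15-103 had the smallest, 1.98 ± 0.44 (adjusted p = 0.00138), and Igkv1-35 lay near the median at 2.78 ± 0.25 (adjusted p = 4.74e-07). DESeq2, which kept all segments, called 16 of 18 higher, against 6133 of 20040 genes higher and 64.9% in either direction. Without the libraries numbered 15, 14 of the 15 were called, and Igkv4-80 was not (adjusted p = 0.0607).

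Ighm and the B cell genes differed more between the tissues than the V segments did. Ighm, the constant region of IgM heavy chains, had a log2 share of counts 3.41 higher in spleen, or 10.7-fold (exact permutation p = 0.00216), and an edgeR difference of 3.62 ± 0.15 (adjusted p = 5.86e-10). All 21 tested B cell genes were higher in spleen, with a median log2 difference of 4.23. Of the 20 tested plasma cell and secretion genes, 17 were called higher and 1 lower, with a median of 0.996. Jchain, which joins IgM and IgA units into polymers, was 2.35 ± 0.20 higher (adjusted p = 3.56e-07), while Ighg, an IgG constant region, had -0.44 ± 0.36 (adjusted p = 0.271).

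Set against Ighm and against the B cell genes, V segment counts were higher in thymus. There were 58.0 to 97.5 V counts per 1000 Ighm counts in thymus and 34.8 to 41.9 in spleen, with no overlap and a 1.93-fold difference (exact permutation p = 0.00216). Per 1000 counts of B cell genes, the values were 106 to 253 in thymus and 42.6 to 100.4 in spleen, a 2.70-fold difference (exact permutation p = 0.00216). The 4 spleen against thymus tests of library values had the same adjusted p of 0.00216. Per 1000 Jchain counts the tissues overlapped, at 322 to 444 in thymus and 390 to 549 in spleen. These ratios were chosen after the data had been seen. A row named Igh-6, also viewed afterwards, held 168 to 778 CPM in spleen and 204 to 772 CPM in thymus, scaled within each tissue. Whether reads were split between it and Ighm was not tested.

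**Figure D3:**
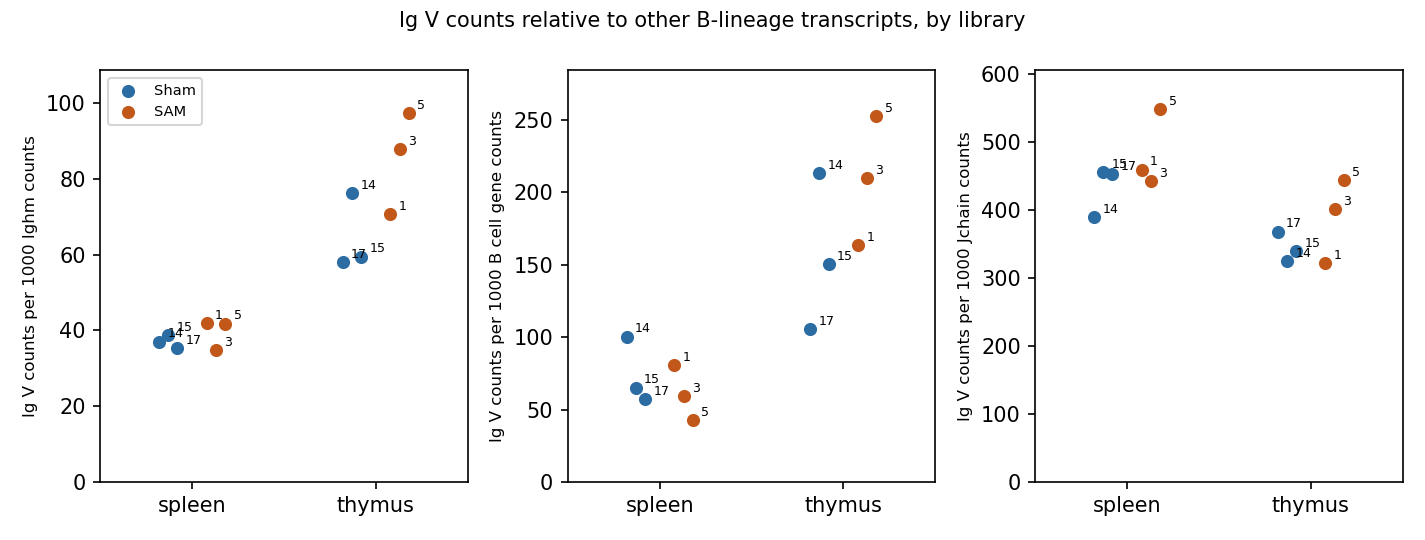
V segment counts per 1000 counts of Ighm (left), of the summed B cell genes (middle) and of Jchain (right), 1 point per library with its number, on axes that start at 0. All 6 thymus libraries lie above all 6 spleen libraries for Ighm (58.0 or more against 41.9 or less) and for the B cell genes, and the tissues overlap for Jchain.

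Between the treatments, the V share of counts in spleen was lower on average in SAM, within the spread of the libraries. The shares were 0.0516, 0.0399 and 0.0325% in SAM 1, 3 and 5, and 0.0670, 0.0528 and 0.0470% in Sham 14, 15 and 17. SAM 1 lay above Sham 17, so the groups overlapped. The means were 0.0413 ± 0.00965% and 0.0556 ± 0.0103% (SD, n = 3 each), a difference of -0.0143 percentage points (two-sided exact permutation p = 0.2). With 3 against 3 libraries this exact test cannot go below p = 0.1. Without Igkv1-35 the difference was -0.00477 percentage points, and leaving out each library in turn gave -0.0194 to -0.00857.

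Diversity was measured as the effective number of segments, the exponential of the Shannon entropy of their counts, which equals the number of segments if all were equally used. It was 6.45, 7.10 and 6.39 in spleen SAM 1, 3 and 5, and 5.39, 6.70 and 5.87 in Sham 14, 15 and 17. The highest value was in SAM 3 and the lowest in Sham 14, and the groups overlapped through Sham 15. Means were 6.65 ± 0.39 and 5.99 ± 0.66 (SD, n = 3 each; difference 0.66, exact permutation p = 0.3). Without Igkv13-85, a segment left out after its high level in Sham 15 had been seen, the difference was 0.81, and the separation that results follows in part from that choice. Summing the segments of each numbered family left a difference of 0.31 (exact permutation p = 0.4).

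Heavy chain segments held 20.8, 25.4 and 17.2% of V counts in spleen SAM 1, 3 and 5, and 19.8, 22.9 and 22.6% in Sham 14, 15 and 17. The SAM libraries included both the highest and the lowest value. The difference of the means was -0.65 percentage points (exact permutation p = 0.9), and it turned to 1.33 without SAM 5.

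**Figure D4:**
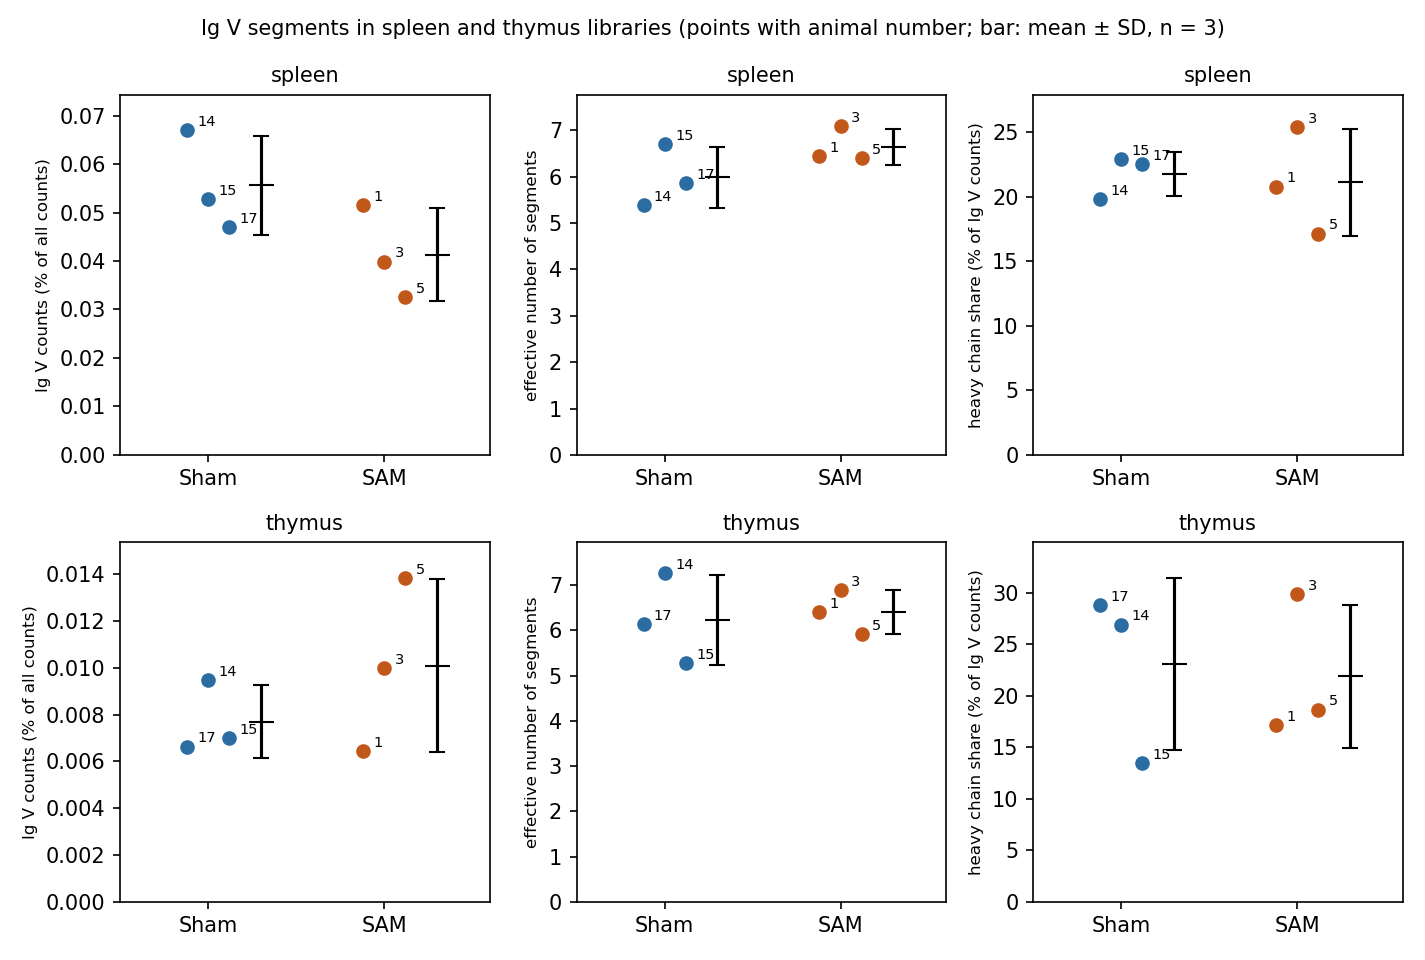
V share of all counts (%), effective number of segments, and heavy chain share of V counts (%) in spleen (top) and thymus (bottom), with 1 numbered point per library and bars for the mean ± SD (n = 3), on axes that start at 0. SAM and Sham points overlap in all 6 panels; SAM has the lower mean share in spleen (0.0413 against 0.0556%) and the higher in thymus (0.0101 against 0.00770%).

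Segment by segment, edgeR called 0 of the 15 segments between SAM and Sham in spleen, as it called 0.0% of all 14530 genes. At an unadjusted p under 0.05 it had 2 of the 15 and 4.11% of all genes (597). DESeq2 called 7 genes (0.0343%), 0 of them V segments. The segments' median log2 fold change was -0.25, against 0.00 over all genes, with 5 of 15 above 0. SAM and Sham did not overlap for 2 of the 15, both with SAM below Sham, against 4.74% of all genes in that direction and 9.22% in either.

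The first was Igkv1-35, with 201, 138 and 140 CPM in spleen SAM 1, 3 and 5 and 351, 203 and 214 CPM in Sham 14, 15 and 17. The gap between the groups was narrow, from 201 to 203 CPM, and Sham 14 stood well above the rest. Its log2 fold change was -0.68 ± 0.23 (SE; edgeR adjusted p = 0.967), and -0.38 without Sham 14.

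Igkv4-91 (ENSRNOG00000057618) had far fewer counts, at 0.742, 0.746 and 0.868 CPM in SAM 1, 3 and 5 and 2.84, 1.99 and 1.86 CPM in Sham 14, 15 and 17. Every Sham library was at more than 1.8 CPM and every SAM library below 0.9. Its log2 fold change was -1.50 ± 0.27 (SE; edgeR adjusted p = 0.967), and -1.60 to -1.29 with each library left out in turn. It rests on 151 counts over the 6 libraries.

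The other low p-values in spleen belonged to heavy chain segments and to Igkv13-85. Ighv12-3 had 5.54, 5.76 and 3.76 CPM in SAM 1, 3 and 5 and 8.78, 13.9 and 4.16 CPM in Sham 14, 15 and 17, overlapping through Sham 17 (log2 fold change -0.85 ± 0.39, edgeR adjusted p = 0.967). It was -0.37 without Sham 15. Ighv7-4 had 92.7, 82.2 and 45.3 CPM against 107, 96.6 and 89.1 CPM, overlapping through SAM 1 (-0.41 ± 0.23, edgeR adjusted p = 0.967). SAM 5 was the lowest library for both.

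The remaining spleen segments had log2 fold changes between -0.46 (Ighv5-12-4) and 0.59 (Igkv4-80), all with overlapping groups. Igkv12-41 spanned 26.0 to 79.6 CPM within SAM alone. Igkv12-44, the steadiest segment, had 12.7, 18.2 and 11.5 CPM in SAM 1, 3 and 5 and 12.6, 15.3 and 11.6 CPM in Sham 14, 15 and 17 (0.10 ± 0.19).

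The other transcripts of the lineage were read beside the spleen segments. Ighm had 12443, 11423 and 7761 CPM in SAM 1, 3 and 5 and 18730, 13325 and 13128 CPM in Sham 14, 15 and 17, so that every SAM library lay below every Sham library (log2 fold change -0.51 ± 0.21, edgeR adjusted p = 0.967). Without Sham 14 it was -0.33. Jchain had -0.59 ± 0.27 (edgeR adjusted p = 0.967) and Ighg, at 1.93 to 11.0 CPM, 0.60 ± 0.51 (edgeR adjusted p = 0.967). Per 1000 Ighm counts, V counts were 41.9, 34.8 and 41.8 in SAM 1, 3 and 5 and 37.1, 38.7 and 35.4 in Sham 14, 15 and 17, with overlap (difference 2.44, exact permutation p = 0.4).

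Of the 20 tested plasma cell and secretion genes, 0 were called by edgeR in spleen, and 2 had a positive log2 fold change (median -0.21). Their summed level was 2291 to 3164 CPM in SAM and 3105 to 4347 CPM in Sham. Jchain, given above, is one of these genes. It made up 591 of the 2291 CPM in SAM 5 and 1716 of the 4347 CPM in Sham 14. Of 21 B cell genes, 0 were called and 4 were positive (median -0.14), with sums of 6390 to 7623 and 6670 to 8199 CPM. SAM 5 had the lowest V share and the lowest plasma cell sum, and at 7623 CPM the highest B cell sum of the SAM libraries. T cell genes were all 10 positive (median 0.26, 0 called), with sums of 1017 to 1170 CPM in SAM and 823 to 1020 CPM in Sham. At an unadjusted edgeR p under 0.05 there were 6 of the 21 B cell genes and 5 of the 10 T cell genes. The plasma cell list had 1 of 20, and all genes had 4.11%. The part of these shifts in the V segment values was not tested.

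In thymus, the V share of counts was 0.00644, 0.0100 and 0.0138% in SAM 1, 3 and 5 and 0.00948, 0.00699 and 0.00664% in Sham 14, 15 and 17. SAM held both the lowest and the highest library. Means were 0.0101 ± 0.00371% and 0.00770 ± 0.00155% (SD, n = 3 each; difference 0.00239 percentage points, exact permutation p = 0.5). The difference was 0.00386 without SAM 1 and Sham 15, the libraries with more mitochondrial counts, 0.00422 without SAM 1 and 0.000514 without SAM 5. The size of the thymus difference therefore rested on single libraries.

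Effective segment numbers in thymus were 6.41, 6.89 and 5.92 in SAM 1, 3 and 5 and 7.27, 5.28 and 6.14 in Sham 14, 15 and 17, with Sham holding both extremes. Their means were 6.41 ± 0.48 and 6.23 ± 0.99 (SD, n = 3 each; difference 0.18, exact permutation p = 0.9), and the difference was -0.30 without SAM 1 and Sham 15. Heavy chain segments took 17.2, 29.8 and 18.7% of V counts in SAM 1, 3 and 5 and 26.9, 13.5 and 28.8% in Sham 14, 15 and 17. Both groups held libraries at or under 18.7% and libraries at or above 26.9%, and the difference was -1.18 percentage points (exact permutation p = 1.0), or -3.62 without SAM 1 and Sham 15. Over the 8 SAM against Sham tests of library values in both tissues, adjusted p-values were 0.8 to 1.0.

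Among the 10 segments tested in thymus, edgeR called 0, as it called 0.0% of all 15036 genes. At an unadjusted p under 0.05 it had 3 of the 10 and 6.13% of all genes (922), and DESeq2 called 102 genes (0.676%), 0 of them V segments. The median log2 fold change of the segments was 0.32, with 7 of 10 above 0, against 0.00 over all genes. SAM and Sham overlapped for all 10, whereas 11.9% of all genes did not overlap.

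For some of them the groups overlapped only through SAM 1 or Sham 15, which were left out after the data had been seen. Without both libraries, every remaining SAM library lay above every remaining Sham library for 5 of the 10 segments, Igkv1-35, Igkv4-53, Igkv12-41, Igkv13-85 and Ighv7-4, and below for 0. SAM 1 had the lowest V share of the 6 thymus libraries (0.00644%) and was the lowest SAM library for each of these 5. Leaving it out therefore works toward this separation, and the 5 segments are not separate observations. For Igkv1-35 the gap was narrow. With 2 libraries left in each group, 2324 of all 15036 genes had SAM above Sham, and 31.4% did not overlap in one direction or the other. In the fit without them edgeR again called 0 of 10, with 4 of 10 at an unadjusted p under 0.05 and 612 of 15126 genes, and the segments' median log2 fold change was 0.39, with 8 of 10 above 0.

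Igkv4-53 (ENSRNOG00000052969) had the lowest p in thymus, with 3.08, 8.19 and 10.1 CPM in SAM 1, 3 and 5 and 1.97, 1.88 and 4.02 CPM in Sham 14, 15 and 17. SAM 3 and SAM 5 stood above the rest and SAM 1 lay within the Sham range. Its log2 fold change was 1.44 ± 0.47 (SE; edgeR adjusted p = 0.702), and 1.61 without SAM 1 and Sham 15.

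A similar pattern held for Igkv13-85 (ENSRNOG00000056447), at 0.555, 3.37 and 2.09 CPM in thymus SAM 1, 3 and 5 and 0.557, 0.484 and 0.712 CPM in Sham 14, 15 and 17 (1.77 ± 0.59, edgeR adjusted p = 0.714; 2.10 without SAM 1 and Sham 15). Igkv12-41 had 11.96, 16.4 and 14.6 CPM in SAM and 12.7, 5.598 and 5.39 CPM in Sham 14, 15 and 17, overlapping through Sham 14 (0.86 ± 0.33, edgeR adjusted p = 0.780; 0.78 without SAM 1 and Sham 15). In the opposite direction, Igkv1-99 had 1.42, 1.23 and 0.886 CPM against 3.95, 3.50 and 0.813 CPM, with Sham 17 the lowest of all 6 (-1.22 ± 0.55, edgeR adjusted p = 0.824; -1.16 without SAM 1 and Sham 15).

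Igkv1-35 had 24.8, 29.1 and 60.3 CPM in thymus SAM 1, 3 and 5 and 28.9, 37.9 and 21.9 CPM in Sham 14, 15 and 17 (0.36 ± 0.35, edgeR adjusted p = 0.944). SAM 5 alone stood out, and the value was -0.13 without it and 0.81 without SAM 1 and Sham 15. Without SAM 1 and Sham 15 the groups were apart only from 28.9 CPM (Sham 14) to 29.1 CPM (SAM 3). Ighv7-4 had 9.74, 24.7 and 22.0 CPM against 19.7, 7.80 and 17.5 CPM (0.33 ± 0.41, edgeR adjusted p = 0.969; also 0.33 without SAM 1 and Sham 15). It was lowest in SAM 1 and Sham 15, the libraries with more mitochondrial counts.

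**Figure D5:**
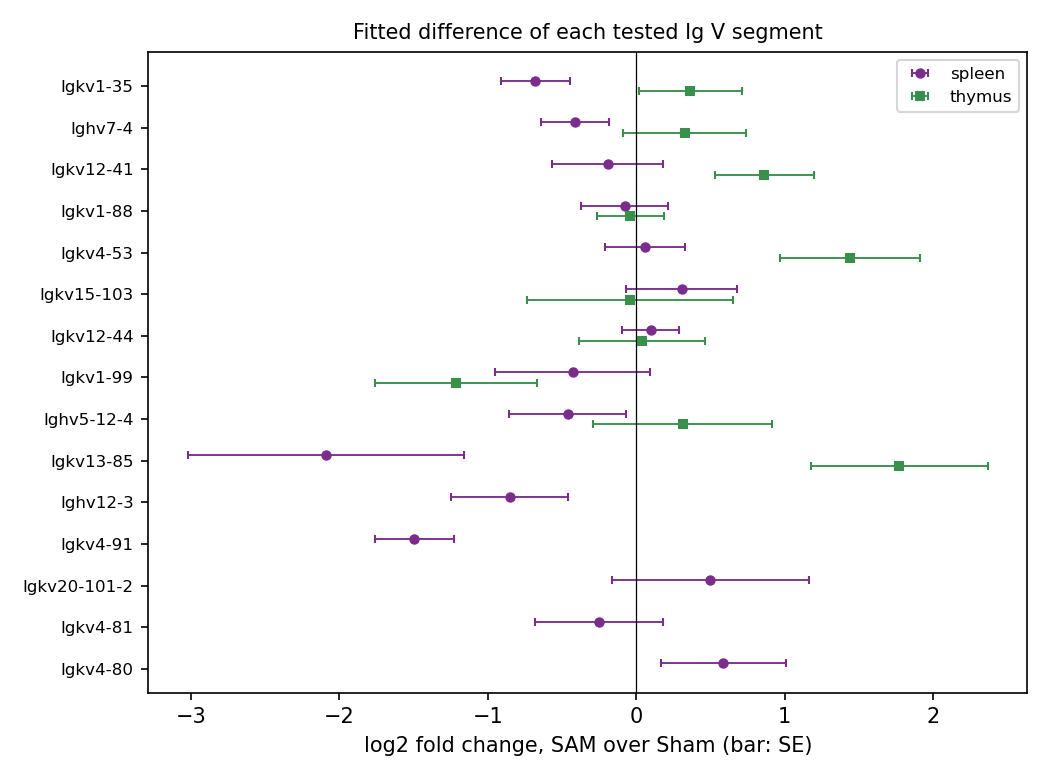
Fitted log2 fold change, SAM over Sham, of each segment tested in spleen (15 circles) and thymus (10 squares), with the SE as bars and a line at 0. Most bars lie within 1 of 0, Igkv4-91 is at -1.50 in spleen, and Igkv13-85 is at -2.09 in spleen and 1.77 in thymus.

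Constant regions and Jchain were read beside the thymus segments. Ighm had 938, 1128 and 1395 CPM in SAM 1, 3 and 5 and 1229, 1216 and 1116 CPM in Sham 14, 15 and 17 (log2 fold change -0.04 ± 0.13, edgeR adjusted p = 0.985), and Jchain had 0.16 ± 0.20 (edgeR adjusted p = 0.969). Without SAM 1 and Sham 15 these were 0.10 and 0.25. Ighg had 12.3, 12.4 and 15.7 CPM in SAM and 14.6, 5.92 and 5.29 CPM in Sham 14, 15 and 17, overlapping through Sham 14 (0.65 ± 0.37, edgeR adjusted p = 0.876), and 0.50 without SAM 1 and Sham 15. The row named Igh-6, chosen after its values had been seen, had 396, 204 and 772 CPM against 336, 270 and 226 CPM, with SAM holding both extremes (0.72 ± 0.42, edgeR adjusted p = 0.878).

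V counts per 1000 Ighm counts were 70.8, 88.0 and 97.5 in SAM and 76.4, 59.5 and 58.0 in Sham 14, 15 and 17, overlapping through Sham 14 (difference 20.8, exact permutation p = 0.2), and the difference was 25.6 without SAM 1 and Sham 15. Of 20 plasma cell genes, 0 were called by edgeR and 1 by DESeq2, and 11 were positive, while 5 of 21 B cell genes were positive with 0 called. Thymic epithelial genes did not overlap between the groups in their sum, at 822 to 1174 CPM in SAM and 1595 to 1610 CPM in Sham (0 of 10 positive, 0 called by edgeR and 6 by DESeq2), and their part in the V segment values was not tested.

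The genes that cut and join V segments were read as well. Of the V(D)J recombination and pre-B cell list, 10 of 14 were tested in spleen and 12 in thymus, with 0 called by edgeR between SAM and Sham in either tissue. Over both treatments, 9 of 12 were higher in thymus, against 38.5% of all genes, and 2 were higher in spleen (median log2 difference, spleen minus thymus, -2.07). T cell precursors in the thymus use these enzymes to join T cell receptor segments, so their level there is no measure of B-lineage cells. Germinal centre and somatic hypermutation genes, which act when B cells mutate their V segments, were tested for 13 genes in spleen and 11 in thymus, with 0 called by edgeR in either and 4 and 5 positive. Red pulp macrophage and erythroid genes had 0 of 10 called in either tissue, with 9 positive in spleen and 4 in thymus.

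Whether the SAM against Sham difference itself differed between spleen and thymus was tested as an interaction. For the V share of counts, the spleen difference less the thymus difference was -0.78 on the log2 scale (exact permutation of the treatment within each tissue, p = 0.105). Without the libraries numbered 1 it was -1.24 (exact permutation p = 0.02), and over the numbers left out in turn it ran from -1.24 to -0.35. In edgeR, 0 of 15 segments and 0.0% of 15781 genes were called, while 3 segments and 4.11% of genes (649) had an unadjusted p under 0.05. DESeq2 called 3 genes (0.0132%), 0 of them V segments. The 3 segments were Igkv13-85 (-3.85 ± 1.34), Igkv4-53 (-1.38 ± 0.59) and Igkv1-35 (-1.04 ± 0.47), each with an edgeR adjusted p of 0.9999.

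The spleen level of Igkv13-85 came mostly from 1 library. In spleen, Sham 15 had 29.9 CPM (616 of the 840 spleen counts), while Sham 14 and Sham 17 had 1.78 and 3.42 CPM and SAM 1, 3 and 5 had 3.14, 2.98 and 2.31 CPM. The spleen log2 fold change was -2.09 ± 0.93 (edgeR adjusted p = 0.967), and 0.12 without Sham 15. The thymus library with the same number had 0.484 CPM, the lowest of the 6, but on 9 counts against 9 in SAM 1 and 11 in Sham 14.

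Outside the lymphoid tissues, V segments had few counts. The 6 liver libraries held 8 to 46 V counts each, and the 6 brain libraries held 0 for all 18 segments, which allows up to 3 counts a library, or 0.153 to 0.233 CPM.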

How the data were processed

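Total RNA was purified on RNeasy columns and stranded TruSeq mRNA libraries were made, per the labels' protocols. Per the submitters' processing notes, the tool STAR (version 2.2.1) and the build rn6 were used, in roles that are not named. The file deposited by the authors holds raw, whole-number counts for each gene in each library. How reads were counted, on which strand and against which annotation is not given in the sources used here. Each column's tissue and number identified its sample.

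Counts of each tissue were fitted over all genes with edgeR 4.0.16 in R 4.3.3 (filterByExpr, TMM scaling, quasi-likelihood test, Benjamini-Hochberg at 0.05), and the interaction and the tissue difference over the 12 spleen and thymus libraries. The fits were checked on counts simulated with the same small spread between libraries for all genes. That check does not measure their power for the more variable segments. CPM values of single segments, Ighm, Ighg, Igh-6 and Jchain are TMM-scaled within each tissue, so those of spleen and thymus do not share a scale. Shares and list sums use library totals. An SE is the log2 fold change over the root of its F statistic. Exact permutation tests of library values used scipy 1.17.1 in Python 3.11.15, two-sided. DESeq2 1.42.0 and other filters, scalings, members and left-out libraries were tried as alternatives. The 10 marker lists held 134 symbols, of which 118 were found. Named segments were those with the highest mean CPM (up to 6 heavy and 6 kappa a tissue), the 5 with the lowest p at a mean of at least 1 CPM, the constant regions and the leading genes of each list, and the remaining segments were accounted for afterwards. The members and lists were chosen with earlier results of these data known. Of the 18 segments, 2 matched RefSeq's gene table and 0 its promoter table, so no sequence or position is given.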

Additional observations from a re-analysis of the deposited data

Results flagged for a closer look

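Igkv13-85 had 8 counts in the liver library Sham 15 and 0 in the other 5 liver libraries, a signal outside the spleen and thymus comparisons and above the 3 counts that a count of 0 allows. It was 8 of the 28 V counts of that library. The spleen library of the same number had the highest Igkv13-85 level of the 6 spleens, at 29.9 CPM. The thymus library of that number had the lowest of the 6, at 0.484 CPM, but with 9 counts, as many as thymus SAM 1. Whether the 3 libraries came from the same rat is not stated in the labels, and the cause was not tested.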

How the results depend on the processing

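Leaving out each library in turn reversed some differences, none of which passed a test, and the cause was not tested. The heavy chain share ran from -2.80 to 1.33 percentage points in spleen and from -5.98 to 1.70 in thymus, and the effective number in thymus from -0.30 to 0.69 (-0.30 without SAM 1 and Sham 15). The log2 fold changes of these segments in spleen also crossed 0: Ighv5-12-4 (-0.76 to 0.081), Igkv1-88 (-0.27 to 0.18), Igkv12-41 (-0.74 to 0.11), Igkv12-44 (-0.13 to 0.23), Igkv13-85 (-2.59 to 0.12), Igkv15-103 (-0.071 to 0.68) and Igkv4-53 (-0.37 to 0.26). So did, in thymus, Ighv5-12-4 (-0.089 to 1.25), Igkv1-35 (-0.13 to 0.59), Igkv1-88 (-0.25 to 0.10), Igkv12-44 (-0.28 to 0.50), Igkv15-103 (-0.89 to 0.43) and Ighm (-0.20 to 0.088). Without SAM 1 and Sham 15, Ighm in thymus was 0.10 and Igkv1-88 0.037. The interaction of the V share ran from -1.24 to -0.35, passing 0.05 only without the libraries numbered 1 (exact permutation p = 0.02).

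The counts of segments called stayed at 0 between SAM and Sham in both tissues under the other scaling, no filter, TMM without immunoglobulin genes, DESeq2 and each left-out library. Between spleen and thymus, 14 to 16 segments were called. Among the alternative values that answer a comparison, 139 kept their direction and side of the threshold, 8 reversed and 1 came to pass it, and among those of single genes 316 kept them and 26 reversed.

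Deviations of libraries with the same number in spleen and thymus correlated at -0.02 to 0.19 over 15781 genes, not all above 0.1. Those of libraries with different numbers correlated at -0.25 to 0.13. The ranges overlap and cannot decide whether equal numbers are the same rat, so the main tests did not take the numbers as pairs. With the number as a replicate block, 15 segments were called between the tissues and 0 for the interaction, and the log2 differences of 2.47 (V share), -0.95 (V per Ighm), -1.43 (V per B cell genes) and 3.41 (Ighm share) had an exact permutation p of 0.0313, the smallest possible.

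Constant regions could not replace the V segments in the heavy chain share, because no row with the symbol of a light chain constant region was found. Segments below about 1 CPM rest on few counts.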
